A study of Mus musculus with 20 samples.

Results

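This account covers 7 adipokine genes of mouse epididymal fat, Lep, Adipoq, Retn, Cfd, Rbp4, Nampt and Apln, out of 55401 genes in a table of read counts. They were chosen by name, with earlier results of these data known, and each passed the filter on low counts. The table holds 20 polyA RNA-seq libraries of eWAT, the white fat pad that lies on the epididymis, from restricted and control mice (10 libraries each). Restricted mice were on random food restriction, which the series describes as fasting at intervals together with 5% fewer calories, and control mice were on the control diet. The labels give no strain, genotype, age, length of the regime or time since the last meal, and no genetic change or drug is named for either group. A further label marks contamination with spermatocytes, germ cells in meiosis. It reads Yes for 3 restricted and 7 control libraries and No for 7 restricted and 3 control libraries, so diet and label are unevenly crossed, and the label was kept in the model of every main test. The design asks which transcripts of the depot differ between the diets, and the adipokines are the depot's outputs to the rest of the body.

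Adipokines are proteins that fat secretes. Leptin, the product of Lep, circulates in proportion to fat mass and acts on hypothalamic neurons that restrain feeding. Adiponectin (Adipoq) is made by adipocytes, assembles into multimers and acts on liver and muscle through its receptors. Adipsin (Cfd) is complement factor D, the protease that starts the amplification loop of the alternative complement pathway. Resistin (Retn) is an adipocyte product in mice that opposes insulin action. RBP4 carries retinol in plasma, with the liver as its main source and fat as another. NAMPT makes nicotinamide mononucleotide in the salvage route to NAD and is also found outside cells. Apelin (Apln) is a peptide ligand of a G protein-coupled receptor, made by adipocytes and by endothelium, among other cells.

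The stretches before the transcription starts of Lep, Rbp4 and Apln are shown because these were the 3 adipokines whose transcripts differed between the diets. Each run holds the 250 bases before a RefSeq start on GRCm38.p6, read 5′ to 3′ on the gene's own strand, and capitals mark the motifs named in the next paragraph. The Lep stretch is chr6:29059971-29060220 on the + strand. RefSeq has 2 starts for Rbp4, whose stretches are chr19:38125322-38125571 and chr19:38124812-38125061 on the - strand. Of the stretch before the second start, 124 bases lie in exons of GENCODE transcripts. The Apln stretch is chrX:48034854-48035103 on the - strand.
Lep: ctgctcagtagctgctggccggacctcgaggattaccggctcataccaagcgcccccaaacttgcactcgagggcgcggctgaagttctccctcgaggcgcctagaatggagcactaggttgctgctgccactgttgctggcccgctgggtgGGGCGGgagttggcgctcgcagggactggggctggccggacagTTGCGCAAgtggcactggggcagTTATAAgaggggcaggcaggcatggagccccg
Rbp4, first start: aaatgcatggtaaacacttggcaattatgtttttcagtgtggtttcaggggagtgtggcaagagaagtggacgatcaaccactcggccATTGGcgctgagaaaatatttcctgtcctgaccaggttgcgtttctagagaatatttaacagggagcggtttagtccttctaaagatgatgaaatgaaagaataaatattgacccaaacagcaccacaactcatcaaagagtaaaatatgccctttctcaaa
Rbp4, second start: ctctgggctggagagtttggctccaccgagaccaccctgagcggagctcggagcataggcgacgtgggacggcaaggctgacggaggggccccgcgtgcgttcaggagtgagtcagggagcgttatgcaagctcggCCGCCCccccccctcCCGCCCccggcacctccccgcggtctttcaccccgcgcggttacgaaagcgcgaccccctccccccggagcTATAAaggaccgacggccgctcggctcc
Apln: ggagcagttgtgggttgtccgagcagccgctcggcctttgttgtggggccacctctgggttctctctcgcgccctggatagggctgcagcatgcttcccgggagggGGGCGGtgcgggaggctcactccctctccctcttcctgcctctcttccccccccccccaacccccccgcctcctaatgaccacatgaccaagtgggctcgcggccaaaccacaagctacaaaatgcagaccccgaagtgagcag

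Motifs were searched by letters on both strands of these stretches. They were the GC box GGGCGG, the C/EBP palindrome TTGCGCAA, the TATA box TATAA, the CCAAT box CCAAT, the E-box CACGTG and the cyclic AMP element TGACGTCA. Lep held the GC box, the C/EBP palindrome at 55 to 48 bases before its start, and the TATA box on both strands in overlapping letters at 32 to 27 bases before it. The C/EBP palindrome was the rarest of the 6, found in 0.164% of 32851 promoter stretches of the same length. Rbp4 held 1 CCAAT box before its first start, and 2 GC boxes and a TATA box at 28 to 24 bases before its second. Apln held 1 GC box and no TATA box. GC boxes stood in 32.7% of all stretches, TATA boxes in 22.8% and CCAAT boxes in 33.8%. No E-box (6.02% of all stretches) and no cyclic AMP element (1.55%) was found before any of the 7 adipokines. Nampt, whose transcript was not called by diet, held 5 GC boxes, so this motif was not limited to the adipokines that differed. A match describes letters and does not show that a factor binds there, and the gene counts do not tell the 2 Rbp4 starts apart.

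Libraries held 18291602 to 44061508 counts in restricted and 14306528 to 38789768 in control mice. The RNA integrity number (RIN) of the labels averaged 7.17 ± 0.399 in restricted (SD, n = 8) and 7.41 ± 0.267 in control libraries (SD, n = 9). Levels are given in CPM, a gene's count scaled to the size of its library. Summed marker levels are set on plain library totals, without the library factors (TMM) applied to single genes. These factors ran from 0.873 (Restricted 1) to 1.03 (Restricted 3) in restricted and from 1.007 (Control 8) to 1.08 (Control 1) in control libraries. A factor below 1 raises a library's CPM. The summed level of 10 adipocyte markers was 50149 to 58585 CPM in restricted and 48489 to 60875 CPM in control libraries, with no marker at 0. The summed level of 13 germ cell markers was 3.83 to 100.3 CPM in libraries marked Yes and 4.43 to 38.3 CPM in those marked No, so these markers did not part the libraries as the label does. Skeletal muscle markers stood at 952 to 3302 CPM in 6 libraries, Restricted 1 and Control 1 to 5, and at 22.8 to 107 CPM in the other 14, so results are also given without those 6. Epididymis markers summed to 477 CPM in Control 1 and 102 CPM in Control 6. In the remaining libraries they reached at most 12.3 CPM, in Control 10. The part of such transcripts in the results was not tested. The labels do not say whether the libraries came from separate animals, so a p-value here speaks of the spread between libraries, part of which may be technical. In bulk tissue, fewer cells of a type and less RNA per cell cannot be told apart.

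The 7 transcripts spanned more than 3 orders of magnitude in level, set here per kb of gene length so that genes can be compared. Adipsin stood at the top of all 15986 tested genes. Cfd averaged 14970.0 ± 2896 CPM per kb over the 20 libraries (SD), and Adipoq, in place 7 of all tested genes, averaged 2955 ± 424. Retn followed in place 27 with 1133 ± 159 CPM per kb. In every library the order of these 3 was the same, and all 3 stood above the other 4. Rbp4 averaged 469.7 ± 115.5 CPM per kb in place 67 and Lep 382 ± 108 in place 80. These neighbours were not parted by their spread: Rbp4 was above Lep in 17 of 20 libraries, and Lep was above Rbp4 in Restricted 3, Restricted 7 and Control 10. Nampt averaged 27.1 ± 3.04 CPM per kb and Apln 3.90 ± 1.03, each below all 5 of these in every library, with Nampt above Apln. The 7 genes together took 1.29% to 2.38% of all counts in restricted and 1.84% to 2.57% in control libraries.

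**Figure D1:**
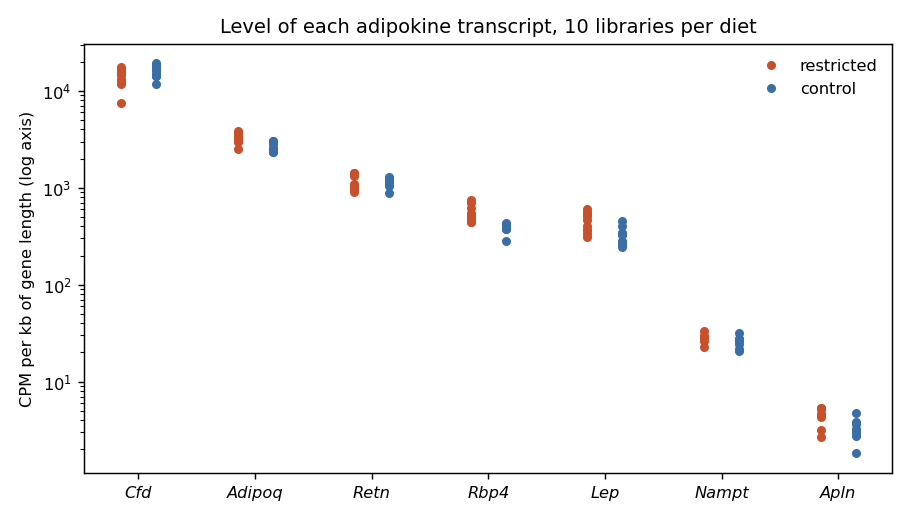
Level of each adipokine transcript in CPM (counts scaled to library size) per kb of gene length on a log axis, with 1 point per library and restricted left of control. Cfd lies highest, between 7476 and 19141, and Apln lowest, between 1.82 and 5.38, while the points of Rbp4 and Lep overlap.

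Restriction was accompanied by higher transcript levels of 3 of the 7 adipokines, leptin, RBP4 and apelin, by 1.36-fold to 1.43-fold in the group means, and none was called lower. Of all 15986 tested genes, 6.31% were called higher and 7.29% lower in edgeR's quasi-likelihood test at an adjusted p of 0.05. The median log2 fold change of the 7 was 0.18, against 0.00881 over all tested genes. These counts describe 7 genes and were not tested as a list. All log2 fold changes are restricted over control, with the label in the model unless said otherwise. Gene coordinates are those of the deposited table on GRCm38, span exons and introns, and belong to protein-coding genes in GENCODE vM21. The calls of Lep and Apln depended on single libraries, and none of the 3 calls was kept without the 6 libraries with muscle transcripts. DESeq2 was not run without those 6. There, 3 of the 7, Lep, Rbp4 and Adipoq, had an unadjusted p under 0.05 in edgeR, and Apln did not (p = 0.0847).

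**Figure D2:**
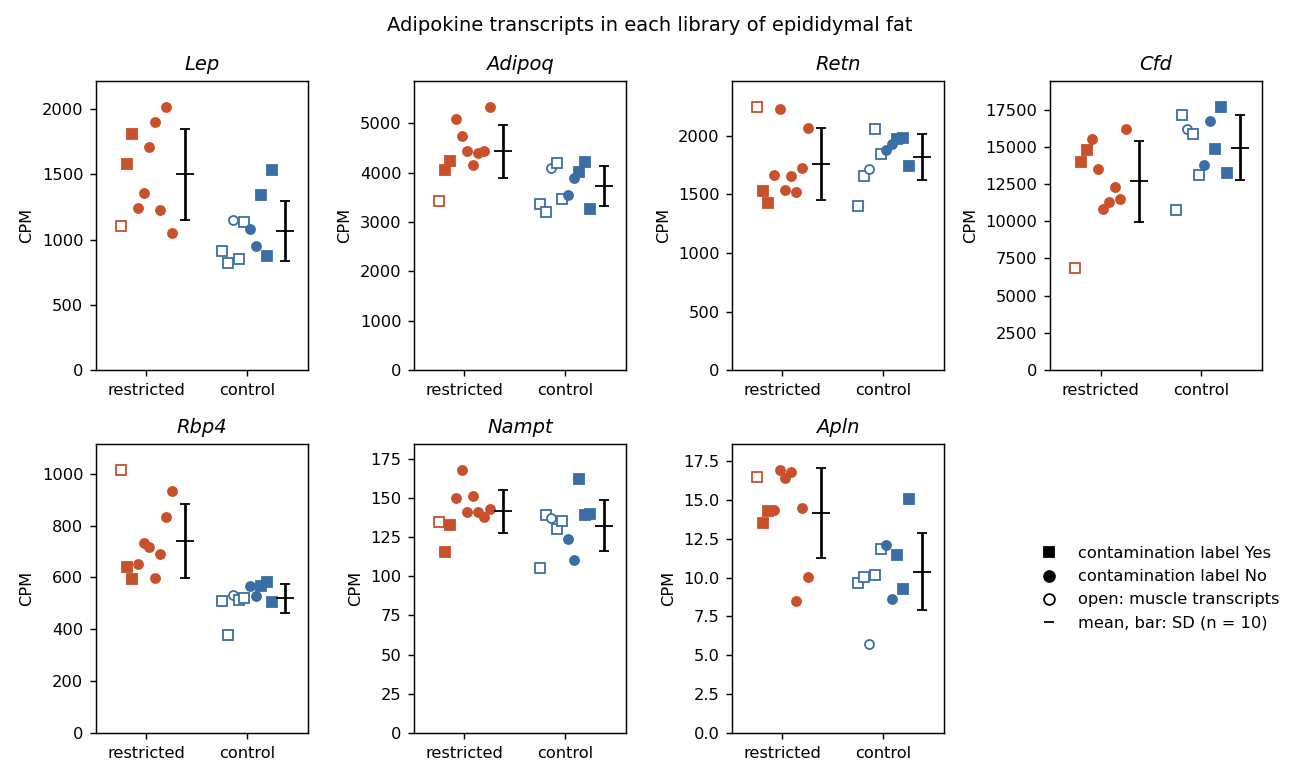
CPM (counts scaled to library size) of each adipokine in the 20 libraries, restricted left of control, with the group mean and SD beside the points (n = 10 each). Squares are libraries marked Yes for contamination, circles those marked No, and open symbols the 6 libraries with muscle transcripts. Only the Rbp4 panel shows groups that do not overlap.

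Lep (ENSMUSG00000059201.12, chr6:29060220-29073877, + strand) had a lowest, median and highest value of 1053, 1467 and 2013 CPM in restricted libraries, against 824, 1016 and 1529.8 CPM in control libraries. The groups overlapped, but 5 restricted libraries lay above the highest control and all 10 above the control median. This count of 10 depends on the library factors, which raise the CPM of Restricted 1 (factor 0.873) and Restricted 10 (0.881). The means were 1499.6 ± 348 CPM in restricted and 1065 ± 230 CPM in control libraries (SD, n = 10 each). Leptin transcripts rose with a log2 fold change of 0.50 ± 0.147 (SE; edgeR adjusted p = 0.0292), and an exact permutation test within the label gave an unadjusted two-sided p of 0.00896. The size was much the same among libraries marked No (0.51) and among those marked Yes (0.49), though neither passed on its own, with adjusted p of 0.167 and 0.232. The call was lost without Restricted 2 (edgeR adjusted p = 0.0528), Restricted 3 (0.0862), Control 6 (0.0541) or Control 7 (0.0714), while the log2 fold change stayed between 0.43 and 0.57. Without the 6 libraries with muscle transcripts it was 0.51 with an adjusted p of 0.0986, and in the 17 libraries with a RIN it was 0.47 with an adjusted p of 0.0603. With RIN as a term in those 17 it was 0.36 with an adjusted p of 0.287.

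Rbp4 (ENSMUSG00000024990.13, chr19:38116629-38125281, - strand) had a lowest, median and highest value of 593, 705 and 1015 CPM in restricted libraries, against 379, 524 and 582 CPM in control libraries. The groups did not overlap, neither over all 20 libraries nor within either mark of the label. Restricted 1 was the highest of all and Control 2 the lowest, and both are libraries with muscle transcripts. The means were 742 ± 143 CPM in restricted and 520.1 ± 56.5 CPM in control libraries (SD, n = 10 each). RBP4 transcripts rose with a log2 fold change of 0.50 ± 0.104 (SE; edgeR adjusted p = 0.00323). The exact permutation test gave p = 6.94e-05, unadjusted and the smallest its arrangements allow. Within the label it was 0.45 among libraries marked No (adjusted p = 0.078) and 0.56 among those marked Yes (0.11). The call was kept without each of the 20 libraries, with an adjusted p of at most 0.0132. Without Restricted 1 the log2 fold change was 0.37, and without all 6 libraries with muscle transcripts it was 0.32 with an adjusted p of 0.0945, where the groups still did not overlap. The liver is the main source of plasma RBP4, and Alb, the albumin gene of hepatocytes, averaged 28.4 ± 4.38 CPM in restricted and 16.2 ± 4.70 CPM in control libraries (log2 fold change 0.78 ± 0.165, SE; edgeR adjusted p = 0.00341). Of 6 hepatocyte markers 3 were tested, and 1 of them, Alb, was called higher, where 6.31% of all tested genes were called higher. The median log2 fold change of the 3 was −0.02, and Apoa2, Fgb and Tat were below the filter on low counts. Summed over the 6 hepatocyte markers, most of it from Cyp2e1, the level was 3226 to 6539 CPM in restricted and 3238 to 6040.2 CPM in control libraries. The part of such transcripts in the Rbp4 result was not tested.

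Apln (ENSMUSG00000037010.7, chrX:48025146-48034853, - strand) was the scarcest of the 7, with 83 to 621 counts per library. It had a lowest, median and highest value of 8.47, 14.4 and 16.9 CPM in restricted libraries, against 5.73, 10.1 and 15.05 CPM in control libraries. The groups overlapped: 4 restricted libraries lay above the highest control, Control 10, and 8 above the control median, while Restricted 8 and Restricted 10 lay below it. The means were 14.2 ± 2.89 CPM in restricted and 10.4 ± 2.47 CPM in control libraries (SD, n = 10 each). Apelin transcripts rose with a log2 fold change of 0.53 ± 0.152 (SE; edgeR adjusted p = 0.0243; exact permutation p = 0.00354, unadjusted). The call was lost without Restricted 1 (adjusted p = 0.0542), Control 3 (0.063) or Control 7 (0.0613), and in limma-voom with quality weights (0.061). Among libraries marked No the log2 fold change was 0.65 (adjusted p = 0.178) and among those marked Yes 0.42 (0.156). In the 17 libraries with a RIN it was 0.51 (0.0608), and 0.34 with RIN as a term (0.314). Without the 6 libraries with muscle transcripts the log2 fold change was 0.34 with an adjusted p of 0.307. Endothelium, a second source of apelin, gave summed marker levels of 545 to 947 CPM in restricted libraries (median 668) and 590.01 to 944 CPM in control libraries (median 824). Of 8 endothelial markers 1 was called lower, against 7.29% of all tested genes, and 0 without the 6 libraries with muscle transcripts. The part of endothelium in the Apln result was not tested.

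Adipoq (ENSMUSG00000022878.5, chr16:23146536-23157292, + strand) had a lowest, median and highest value of 3433, 4414 and 5325 CPM in restricted libraries, against 3213, 3720.5 and 4226 CPM in control libraries. The groups overlapped, with 7 restricted libraries above the highest control and Restricted 1 low among the controls. The means were 4433 ± 536 CPM in restricted and 3728 ± 399 CPM in control libraries (SD, n = 10 each). The log2 fold change of 0.18 ± 0.0805 (SE) did not pass in edgeR (p = 0.0337, adjusted p = 0.14). It passed without the label in the model, with 0.25 and an adjusted p of 0.0254, and in limma-voom with quality weights, with 0.22 and an adjusted p of 0.0393. In the exact permutation test within the label p was 0.0247, unadjusted over the 7 genes so tested. Among libraries marked No, the 7 restricted ones (4160 to 5325 CPM) all lay above the 3 control ones (3547 to 4099 CPM), whereas among those marked Yes the groups overlapped. Whether the diet difference itself differed between the labels was tested by the interaction, which gave −0.19 with an adjusted p of 0.868.

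Cfd (ENSMUSG00000061780.6, chr10:79890853-79892607, + strand) had a lowest, median and highest value of 6893, 12913 and 16185 CPM in restricted libraries, against 10771, 15329 and 17648 CPM in control libraries. The groups overlapped. Controls 2, 3, 7 and 9 lay above the highest restricted library, Restricted 1 lay below the lowest control, and 8 restricted libraries were below the control median. The means were 12679 ± 2741 CPM in restricted and 14925 ± 2178 CPM in control libraries (SD, n = 10 each). The log2 fold change was −0.28 ± 0.136 (SE) and did not pass in edgeR (p = 0.0527, adjusted p = 0.183). An exact permutation test within the label gave p = 0.0385, unadjusted over the 7 genes so tested. The log2 fold change was −0.25 among libraries marked No and −0.30 among those marked Yes, and −0.16 without Restricted 1.

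Retn (ENSMUSG00000012705.16, chr8:3655770-3660110, + strand) had a lowest, median and highest value of 1424, 1665 and 2244 CPM in restricted libraries, against 1400.0, 1863 and 2055 CPM in control libraries. Restricted libraries lay at both ends of the range: 3 of them, Restricted 1, 5 and 10, were above the highest control and the other 7 below the control median. These 3 had the lowest library factors of all, 0.873, 0.924 and 0.881, which raise their CPM. Their place above the controls depends on this scaling. The means were 1761 ± 305 CPM in restricted and 1818 ± 195 CPM in control libraries (SD, n = 10 each). The log2 fold change was −0.06 ± 0.0997 (SE; edgeR adjusted p = 0.751), and −0.22 with an adjusted p of 0.243 without the 6 libraries with muscle transcripts. No difference by diet was shown.

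Nampt (ENSMUSG00000020572.8, chr12:32819545-32853349, + strand) had a lowest, median and highest value of 115, 141 and 168 CPM in restricted libraries, against 105, 136 and 162 CPM in control libraries. The groups overlapped over nearly the whole range. The means were 141 ± 13.7 CPM in restricted and 132 ± 16.3 CPM in control libraries (SD, n = 10 each), with a log2 fold change of 0.08 ± 0.079 (SE; edgeR adjusted p = 0.543). Among libraries marked No, the 7 restricted ones (138 to 168 CPM) all lay above the 3 control ones (110.1 to 137.5 CPM), with a log2 fold change of 0.26. Among libraries marked Yes the log2 fold change was −0.09 and the groups overlapped. The interaction of diet and label was −0.35 with an unadjusted p of 0.0224 and an adjusted p of 0.859 in edgeR, so a difference between the labels was not shown once all genes were counted.

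**Figure D3:**
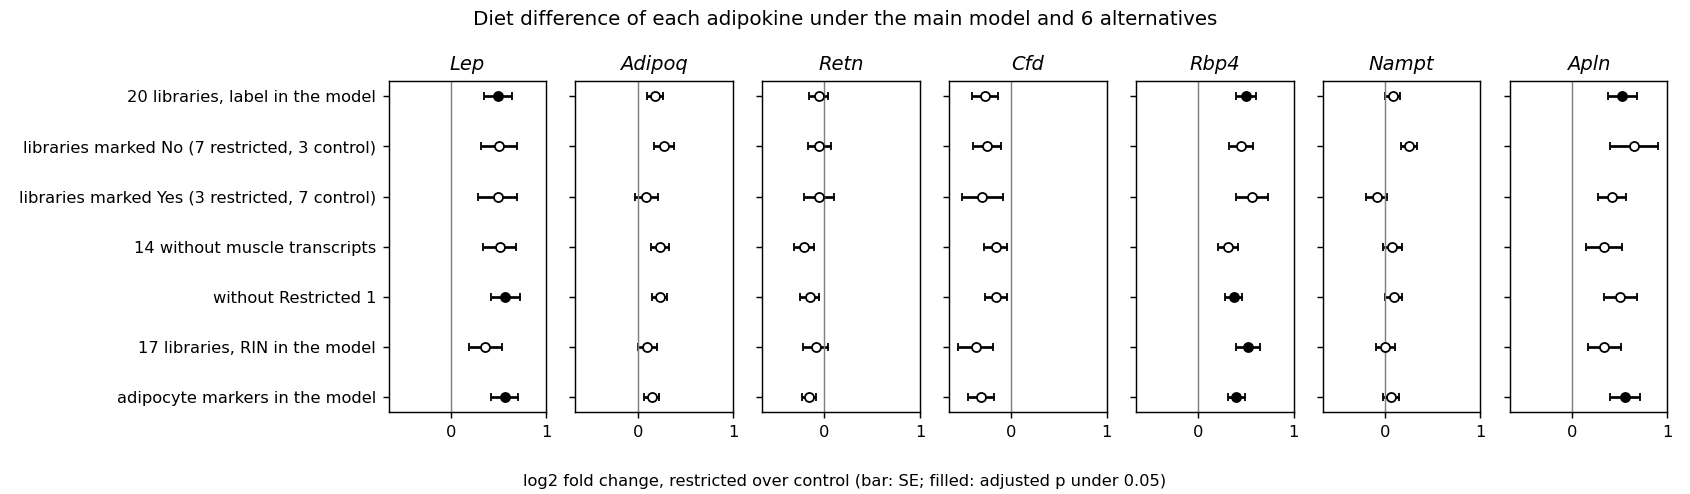
Log2 fold change of each adipokine, restricted over control, with its SE, under the main model and 6 alternatives from top to bottom. Filled points passed an adjusted p of 0.05. Lep, Rbp4 and Apln lie right of 0 in every row, Cfd and Retn left of it, and Nampt changes side in libraries marked Yes.

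With the contamination label, none of the 7 adipokines was called in edgeR or DESeq2, and none had an unadjusted p under 0.05 in edgeR, where 5.3% of all tested genes were called, 5.04% higher and 0.269% lower in libraries marked Yes. Adipoq had the lowest p, with a log2 fold change of −0.16, Yes over No, and an adjusted p of 0.415. For Apln it was 0.20 with an adjusted p of 0.656. By the interaction of diet and label 0% of all genes were called in edgeR and 871 had an unadjusted p under 0.05, Nampt alone among the adipokines, and DESeq2 called 1 gene and no adipokine.

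Ratios within a library do not depend on its scaling, and 3 of them, per kb of gene length, were described without a test. The ratio of Cfd to Adipoq was 3.01 to 5.23 in restricted libraries with a median of 4.23, against 4.78 to 7.99 in control libraries with a median of 5.87. The groups overlapped only in Control 1, at 4.78, which lay below Restricted 2 at 5.16 and Restricted 3 at 5.23. The ratio of Lep to Adipoq was 0.0814 to 0.188 in restricted and 0.0834 to 0.193 in control libraries, with a median of 0.146 in restricted and 0.114 in control libraries, and the groups overlapped over their whole range. The ratio of Rbp4 to Adipoq was 0.132 to 0.304 in restricted and 0.121 to 0.164 in control libraries, with a median of 0.163 in restricted and 0.143 in control libraries. Its highest value, in Restricted 1, stood far from the next, 0.193 in Restricted 9.

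**Figure D4:**
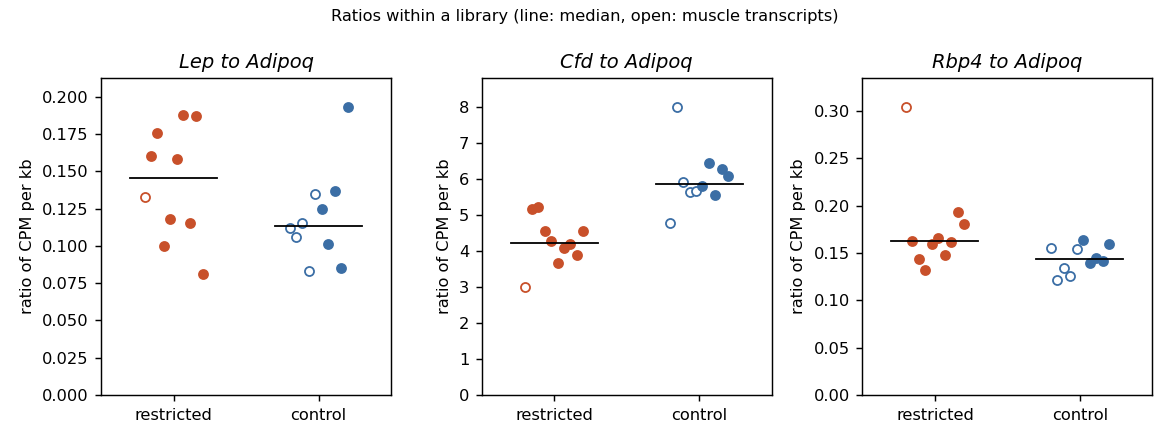
Ratios of 3 adipokines to Adipoq within each library, from CPM per kb, restricted left of control, with the group median as a line and the 6 libraries with muscle transcripts as open points. The Cfd ratios of restricted libraries lie between 3.01 and 5.23 and those of control libraries between 4.78 and 7.99.

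Of 9 tested receptors and carriers of these adipokines, 1 rose, Adipor1, and 1 fell, Lepr, where 6.31% of all tested genes were called higher and 7.29% lower. Neither was called without the 6 libraries with muscle transcripts. Among the partners, regulators and other secreted factors named here and in the following paragraphs, the calls kept with RIN as a term, in the 17 libraries that have one, were those of Adipor1, Mme, Cfp, C5ar1, C5ar2 and Ebf2. Lepr, the leptin receptor, had a lowest, median and highest value of 1.41, 1.86 and 2.77 CPM in restricted libraries, against 1.86, 2.85 and 4.86 CPM in control libraries. Its log2 fold change was −0.68 ± 0.173 (SE; edgeR adjusted p = 0.0123), from 30 to 123 counts per library, and the call was lost without Control 7 (adjusted p = 0.0601). Adipor1, an adiponectin receptor, had values of 187, 204 and 250.1 CPM in restricted libraries, against 169, 181 and 193 CPM in control libraries, with a log2 fold change of 0.19 ± 0.0516 (SE; edgeR adjusted p = 0.0159). For both genes the groups overlapped, and the other 7 tested genes of the list were not called. Among them were Adipor2, the second adiponectin receptor, with a log2 fold change of 0.14 (adjusted p = 0.546), and Cdh13, the T-cadherin that binds adiponectin multimers, with −0.07 (0.745). Aplnr, the apelin receptor, had 0.21 (0.574), and Stra6, a cell-surface receptor for RBP4 with 0 to 55 counts per library, had −1.05 (0.144).

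Proteins that make, fold or clear adiponectin and apelin gave 3 calls, all higher, where 6.31% of all tested genes were called higher. Of 9 tested genes of adiponectin assembly only Plod3 rose, a lysyl hydroxylase that modifies collagen-like domains (log2 fold change 0.23, edgeR adjusted p = 0.0303). That call was lost without Restricted 1 (adjusted p = 0.102), Control 6 (0.0778) or Control 7 (0.0621), and without the 6 libraries with muscle transcripts (0.21). Of 4 tested genes of apelin processing 2 rose. Mme encodes neprilysin, a peptidase that cleaves apelin among other peptides. It stood at 46.3 to 76.5 CPM in restricted and 29.1 to 48.4 CPM in control libraries, with a log2 fold change of 0.60 ± 0.0966 (SE; edgeR adjusted p = 0.000406), and kept its call without the 6 libraries with muscle transcripts (0.52, adjusted p = 0.00976). Pcsk6, a proprotein convertase of the furin family, had a log2 change of 0.45 (adjusted p = 0.0355), and of 0.58 without those 6 (0.01). Its call was lost without Restricted 2, Restricted 3, Control 1, Control 6 or Control 7, with adjusted p of 0.0506 to 0.0992. Apela, the other ligand of the apelin receptor, was below the filter on low counts.

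Genes listed around adipsin for the alternative complement pathway, receptors included, were mostly lower: 7 of 10 fell and none rose, against 7.29% of all genes called lower. Cfi, named after its values were seen, went the other way (log2 fold change 0.76, edgeR adjusted p = 0.15). It was called higher without Restricted 1 (1.05, adjusted p = 0.0432), and was also called by the contamination label (adjusted p = 5.08e-08). The median log2 fold change of the 10 was −0.42, against 0.00881 over all genes. Cfp, the properdin that stabilises the C3 convertase, stood at 69.3 ± 10.5 CPM in restricted and 95.7 ± 14.2 CPM in control libraries (SD, n = 10 each; log2 fold change −0.57, edgeR adjusted p = 0.00017). The receptors of C5a fell too, C5ar1 with −0.56 (adjusted p = 0.000468) and C5ar2 with −0.92 (0.000397). C5ar2 stood at 0.898 to 1.43 CPM in restricted and 1.46 to 2.73 CPM in control libraries, with no overlap between the groups. Cfb, the substrate of factor D, had −0.28 (adjusted p = 0.0258) and lost its call without Restricted 3 (0.0739) or Control 3 (0.0848). C3 itself was abundant, at 1546 ± 457 CPM in restricted and 1998 ± 444 CPM in control libraries, and its call (−0.51, adjusted p = 0.0435) was lost in 14 of 20 fits that left out 1 library, with adjusted p up to 0.134. Without the 6 libraries with muscle transcripts 4 of the 10 were called lower.

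Macrophages carry several of these complement genes, and their markers moved with them. All 10 macrophage markers fell, against 7.29% of all tested genes, and their summed level was 903 to 1603 CPM in restricted and 1456 to 2071 CPM in control libraries. Without the 6 libraries with muscle transcripts 6 of the 10 were called lower. Markers of adipocyte progenitors and fibroblasts summed to 1149.6 to 1863 CPM in restricted and 1922 to 2578 CPM in control libraries. These sums use plain library totals without TMM factors, so their lack of overlap holds on that scale only. Of the 8 progenitor markers 3 fell, against the same 7.29%. Of 10 adipocyte markers other than the adipokines, 1 rose, the fatty acid carrier Fabp4 (log2 fold change 0.31, edgeR adjusted p = 0.015), against 6.31% of all tested genes, and none fell. Fabp4 was not called without the 6 libraries with muscle transcripts (adjusted p = 0.137) or with RIN as a term (0.14). The part of these cell types in the complement result was not tested. With an index of the adipocyte markers in the model, the same 3 adipokines were called, with log2 fold changes of 0.56 for Lep, 0.40 for Rbp4 and 0.56 for Apln.

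**Figure D5:**
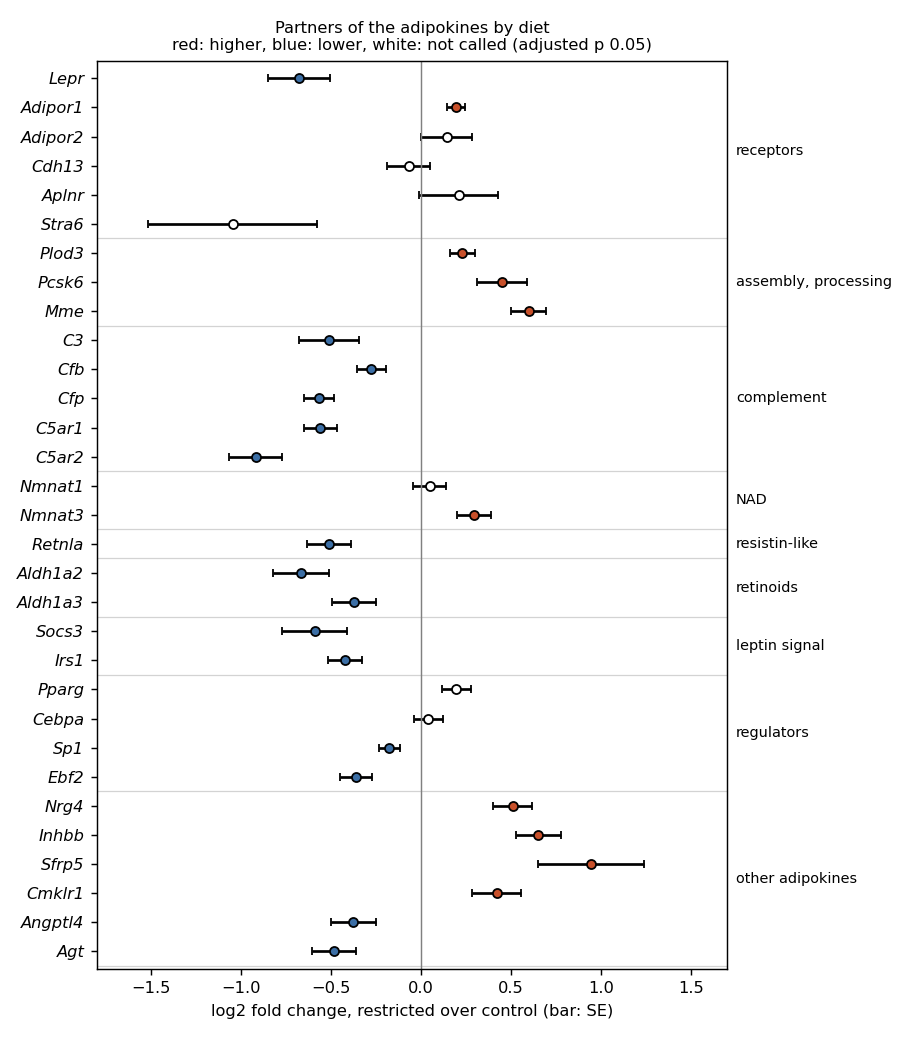
Log2 fold change, restricted over control, with its SE, of receptors, processing enzymes, pathway partners, regulators and other secreted factors, grouped by role. Red points were called higher, blue points lower and white points neither at an adjusted p of 0.05. The 5 complement genes shown lie left of 0, from −0.92 for C5ar2 to −0.28 for Cfb.

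Genes around the other adipokines gave few calls, at 6.31% higher and 7.29% lower over all tested genes. Of 12 genes of NAD salvage and use, 1 rose, Nmnat3, the mitochondrial enzyme of the step after NAMPT (log2 fold change 0.29, edgeR adjusted p = 0.0457). Its call was lost in 14 of 20 fits that left out 1 library, with adjusted p up to 0.178, and without the 6 libraries with muscle transcripts (0.341). Nmnat1, the nuclear enzyme of that step, had 0.05 (adjusted p = 0.779). Retnla, a resistin-like gene of alternatively activated macrophages in mice, fell to 395 ± 79.4 CPM in restricted libraries, against 527 ± 101 CPM in control libraries (SD, n = 10 each; log2 fold change −0.51, edgeR adjusted p = 0.00797), and was not called without the 6 libraries with muscle transcripts (adjusted p = 0.138). Resistin itself was not called. Of 12 tested genes of retinoid handling 2 fell, against 7.29% of all tested genes, and both encode enzymes that make retinoic acid. Aldh1a1, a more abundant gene of this kind, was not called (log2 fold change −0.03, edgeR adjusted p = 0.85). It stood at 316 ± 25.3 CPM in restricted and 319 ± 36.2 CPM in control libraries (SD, n = 10 each), and was named after its values were seen. Aldh1a2 had a log2 change of −0.67 (adjusted p = 0.00711), and Aldh1a3 had −0.37 (0.0457), a call lost in 12 of 20 fits that left out 1 library. Neither was called without the 6 libraries with muscle transcripts, with −0.43 for Aldh1a2 (adjusted p = 0.186) and −0.37 for Aldh1a3 (0.14).

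Of 7 genes of leptin signalling 2 fell, against 7.29% of all tested genes. Irs1, an adaptor of the insulin receptor, stood at 30.3 ± 4.66 CPM in restricted and 39.9 ± 4.89 CPM in control libraries (SD, n = 10 each; log2 fold change −0.42, edgeR adjusted p = 0.00495). Socs3, a feedback inhibitor that leptin induces in its target cells, had −0.59 (adjusted p = 0.0346). Its call was lost without Restricted 1, Restricted 5, Restricted 6, Control 3 or Control 7, with adjusted p of 0.0501 to 0.107. Irs1 was called without the 6 libraries with muscle transcripts (−0.47, adjusted p = 0.0271) and Socs3 was not (0.203). Among 13 transcription factors and coactivators of adipocyte genes 2 fell, against 7.29% of all tested genes, and none rose. Ebf2, a factor of adipocyte precursors and brown fat, had a log2 change of −0.36 (adjusted p = 0.0104), and Sp1, which binds GC boxes, −0.18 (0.0442), a call lost in 13 of 20 fits that left out 1 library. With those 6 libraries left out neither was called, with −0.20 for Ebf2 (adjusted p = 0.199) and −0.11 for Sp1 (0.409). Pparg, the master regulator of adipocyte genes, had 0.20 (adjusted p = 0.101) and Cebpa, whose product binds the C/EBP palindrome, 0.04 (0.778).

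Other secreted factors of fat, with a receptor of one of them, gave 5 genes higher and 3 lower of 37 tested, against 6.31% and 7.29% of all genes. Inhbb, a subunit of activin B, stood at 81.4 ± 9.83 CPM in restricted and 50.8 ± 11.95 CPM in control libraries (SD, n = 10 each; log2 fold change 0.65, edgeR adjusted p = 0.0015). Nrg4, a neuregulin of brown and white fat that acts on the liver, stood at 153 ± 25.1 CPM in restricted and 105 ± 17.6 CPM in control libraries (0.51, adjusted p = 0.00341), and was not called without the 6 libraries with muscle transcripts (0.42, adjusted p = 0.0778) or with RIN as a term (0.48, adjusted p = 0.0657). Agt, the angiotensin precursor, fell to 344 ± 62.1 CPM in restricted libraries, against 477 ± 76.2 CPM in control libraries (−0.48, adjusted p = 0.0113). Fndc5, the precursor of irisin and mainly a muscle gene, was scarce, at 1.87 ± 1.39 CPM in restricted and 7.04 ± 3.70 CPM in control libraries (−1.60, adjusted p = 0.00173), and it was also called without the 6 libraries with muscle transcripts (−1.64, adjusted p = 0.0208) but not with RIN as a term (−1.32, adjusted p = 0.0953). Fndc5 was also called by the contamination label (adjusted p = 0.011). Another 3 called genes were named after their values were seen. Sfrp5, a secreted antagonist of Wnt ligands, had a log2 change of 0.95 (adjusted p = 0.0368), a call lost without Restricted 2, Restricted 3, Control 1, Control 2, Control 6 or Control 9 (0.0516 to 0.115). Cmklr1, the receptor of chemerin, had 0.42 (adjusted p = 0.0432) and Angptl4, an inhibitor of lipoprotein lipase, −0.38 (0.0476), each lost in 14 of 20 such fits. Without the 6 libraries with muscle transcripts 2 of the 37 were called higher and 3 lower.

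The genes whose levels followed each adipokine most closely from library to library were sought after the means of diet and label had been taken out. The values are Pearson's r over 20 libraries, given as a description, since the genes were picked for the highest r among all that were expressed and the libraries share their preparation. Leptin was followed most closely by St5 (r = 0.894), Ccdc9b (0.869) and Rtn4rl1 (0.829), none of which was called by diet. Rbp4 was followed by Slc48a1, a haem transporter (0.929), Cdk16 (0.899) and Adap1 (0.895), all of which were called higher by diet. The nearest genes to Cfd were Agt (0.915), Gstt2 and Polr3gl (0.868 each), and those to Adipoq were Mettl7a1 (0.874), Cd63 (0.865) and Ift52 (0.855). Retn was followed by Acp1 (0.918), Echs1, an enzyme of fatty acid oxidation (0.915), and Cox6b1, a subunit of cytochrome oxidase (0.912). The likeness was weaker for Nampt, with Gtf2h1 (0.843), Sptlc1 (0.806) and Ppp4r4 (0.74), and for Apln, with Bms1 (0.809), Med8 (0.773) and Chd9 (0.743). Without Restricted 1 these values stayed between 0.741 and 0.899. Between the adipokines themselves, r was highest for Adipoq with Cfd (0.699, Spearman's rho 0.717) and for Retn with Rbp4 (0.658, rho 0.732). Without Restricted 1 these were 0.625 and 0.539. Among the adipokines called by diet, r was 0.451 for Lep with Apln, −0.231 for Lep with Rbp4 and −0.034 for Rbp4 with Apln.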

How the data were processed

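PolyA RNA of 20 mouse fat samples was read as 52-bp pairs on a NovaSeq instrument from libraries made with the Tecan Universal Plus kit, per the labels' protocols. Their extraction step names QUAD, not the eWAT of the tissue label, which was followed. STAR, Salmon, bcl2fastq 4.0.3 and GRCm38 are named, without their roles, in the submitters' processing notes. The authors deposited whole-number counts per gene, with no scaling that the values show. Which program counted, with which annotation release and strand setting, is not given in the sources used here. No annotated gene overlaps the span of any of the 7 adipokines in the deposited table.

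The main test was edgeR's quasi-likelihood F test (edgeR 4.0.16, R 4.3.3), two-sided, on a model of contamination label and diet. Library factors were TMM, the filter was filterByExpr at its minimum count of 10, and p-values were adjusted by Benjamini-Hochberg over all 15986 tested genes at 0.05. The interaction of diet and label came from a model with their product. CPM are counts scaled to the tested genes' total times the TMM factor, and CPM per kb divides them by the gene length of the deposited table. Summed marker levels are instead counts scaled to the plain library total, without the TMM factor. An exact permutation test of log2 CPM (prior count 2) kept the label fixed over 14400 arrangements. Likeness between genes is the correlation of log2 CPM over 20 libraries after the means of diet and label were removed by a linear fit. Promoter sequences came from RefSeq on GRCm38.p6 by gene symbol, which matched all 7 adipokines. Alternatives were DESeq2 1.42.0, limma-voom with quality weights (limma 3.58.1), RLE and upper-quartile factors, 2 other filters, a model without the label, libraries of 1 label alone, the RNA integrity number (RIN) or an adipocyte marker index as a term, 14 libraries without muscle transcripts, a replicate block, and each library left out. The fitting steps were tested on simulated data. Tables and figures used Python 3.11.15 with matplotlib 3.10.9, scipy 1.17.1, pandas 2.3.3 and numpy 2.4.6.

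Named were the 7 adipokines, 13 receptors, partners and regulators whatever their values, up to 4 genes with the smallest p among those called in each of 21 lists, and for each adipokine the 3 tested genes of at least 10 CPM most like it. The adipokines and the lists were chosen with earlier results of these data known. Genes named after their values were seen are said to be so where they appear. Some genes that the lists' counts include, 1 of them due a name by this rule, are not reported here. Libraries held 14306528 to 44061508 counts, and the biological coefficient of variation was 0.179. This exceeds counting error except for genes near 1 CPM, such as Stra6 and, in restricted libraries, C5ar2. Lepr comes near that limit at its lowest, with 30 counts in Restricted 1.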

Additional observations from a re-analysis of the deposited data

Results flagged for a closer look

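Rbp4 in Control 2 stood apart from its group, at 379 CPM with the next control library at 504 CPM. The gap was 0.614 of the group's range, above Dixon's critical value for 10 libraries. In all, 14 groups (7 adipokines in 2 diets) were checked and 1 passed that value; chance gives about 1 in 20. Without Control 2 the Rbp4 log2 fold change was 0.47, restricted over control, with an edgeR adjusted p of 0.00401.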

How the results depend on the processing

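The count of adipokines called by diet, 3, was 3 or 4 in DESeq2, limma-voom, RLE and upper-quartile factors, both other filters, the model without the label, the adipocyte index and the replicate block. It was 0 among libraries marked No, 0 among libraries marked Yes, 0 with the 6 muscle-bearing libraries left out, 1 with RIN as a term and 1 in the same 17 libraries without it (Rbp4 each time), and 1 to 3 when single libraries were left out, with 1 without Control 7. Of the 7, unadjusted p was under 0.05 in edgeR for 5 in libraries marked No and for 3 in those marked Yes. The 2173 genes called by diet became 400 in libraries marked No, 239 in those marked Yes, 392 with RIN, 1445 in the same 17 libraries, 927 without the 6 and 1506 to 2274 when single libraries were left out. Genes called by label numbered 709 to 944, and genes called by the interaction 0 to 1 with single libraries left out and 1 in DESeq2. Among the adipokines and list genes named in the report, Aldh1a1, Furin, Pcsk5, Cfi and Ppargc1a aside, these turned sign, none of them called: Nampt in libraries marked Yes (−0.087), Adipor2 with the adipocyte index (−0.00139) and without the 6 (−0.043), Cdh13 with RIN (0.031), in the 17 (0.023), under the replicate block (0.023) and over single libraries (−0.16 to 0.012), Nmnat1 in limma-voom (−0.021), with the adipocyte index (−0.00906), without the 6 (−0.069) and over single libraries (−0.019 to 0.097), and Cebpa in libraries marked No (−0.017) and under the replicate block (−0.00596). The replicate numbers do not pair the libraries: of 10 same-numbered pairs 4 correlated above 0.1 (−0.64 to 0.581), and 1 restricted library correlated best with its own number. With the number as a block 1388 genes and 3 adipokines were called. The causes were not tested. Fewer libraries and degrees of freedom enter each subset.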

Other observations

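Some genes of heat-producing fat, but not all that were tested, were higher in restricted libraries. Of 4 tested markers of brown adipocytes 2 rose, where 6.31% of all tested genes were called higher. Ppargc1a, another of the 4, was not called (log2 fold change −0.04, edgeR adjusted p = 0.901) and was named after its values were seen. Cidea, a lipid droplet protein, stood at 4.62 to 29.1 CPM in restricted and 1.754 to 5.23 CPM in control libraries (log2 fold change 1.63 ± 0.362, SE; edgeR adjusted p = 0.00491). Cox8b, a subunit of cytochrome oxidase, stood at 8.66 to 36.99 CPM in restricted and 7.08 to 13.6 CPM in control libraries (1.05 ± 0.253; adjusted p = 0.00875). Its call was lost without Restricted 1 (0.0645), the library with the highest summed level of skeletal muscle markers (3302 CPM). Neither was called without the 6 libraries with muscle transcripts, with adjusted p of 0.153 for Cidea and 0.183 for Cox8b. Ucp1, Elovl3 and Dio2 were below the filter on low counts. Sycp3, a protein of the meiotic chromosome axis, stood at 2.88 to 12.6 CPM in restricted and 1.31 to 2.88 CPM in control libraries (1.37 ± 0.243; adjusted p = 0.000912), although the contamination label reads Yes for 3 restricted and 7 control libraries. The Sycp3 difference shrank to 0.91 (adjusted p = 0.00178) once Restricted 1 was left out. Of the 13 male germ cell markers listed, 11 were below the filter on low counts, and the other tested one, Sycp2, had −0.43 (adjusted p = 0.22).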
